A study of Mus musculus with 12 samples.

Results

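Imprinted growth regulators outside the Dlk1-Dio3 cluster were examined in quadriceps muscle of young mice. The 10 genes were Plagl1, Cdkn1c, Peg3, Peg10, Mest, Grb10, Ndn, Nnat, Sgce and Igf2r, and they were chosen by symbol. For each, the probe set brightest on average over all arrays was taken among those paired with 1 gene symbol. All 10 were found, each with 1 probe set, among 19938 genes measured that way. In most tissues 3 of them are expressed from the maternal allele (Cdkn1c, Grb10 and Igf2r) and 7 from the paternal allele (Plagl1, Peg3, Peg10, Mest, Ndn, Nnat and Sgce).

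An imprinted gene is transcribed from 1 parental allele, because DNA methylation laid down in the egg or the sperm marks the copies differently and is kept through cell division. Many imprinted genes act on growth before and after birth. Paternally expressed genes are commonly described as promoting growth and maternally expressed genes as restraining it, although single genes depart from that scheme. Several of these genes are high in fetal and newborn muscle and decline as it matures. The arrays measured the total transcript of each gene and did not separate the alleles.

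The series compared C57Bl/6 mice lacking cofilin-2, an actin-severing protein of muscle encoded by Cfl2, with wild type littermates at the age of 7 days, to look for gene expression changes in a mouse model of nemaline myopathy. Quadriceps RNA was run with 1 mouse per array on the Affymetrix Mouse Gene 1.0 ST platform, giving 6 arrays titled WT and 6 titled KO. Neither group had another allele or a treatment that the labels name. Levels are given on the log2 scale, and differences are labelled KO minus labelled WT.

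The transcript of the targeted gene went against the titles. Cfl2 lay between 12.31 and 12.43 on the arrays titled KO and between 4.92 and 7.71 on those titled WT, a difference of 6.32 ± 0.36 (SE) with a limma adjusted p of 1.98e-07. Groups are therefore named labelled KO and labelled WT, after the titles, and every array was kept in its titled group. The study itself listed Cfl2 among the transcripts lower in mice lacking cofilin-2, the opposite of the direction by title. The direction of each difference below is that of the titles, and read through Cfl2 it is opposite to what the study's genotypes would give. Exchanged titles would turn every sign and leave every size and p-value as it stands. A list of 12 muscle fibre genes averaged 12.56 to 12.98 on the 12 arrays as the check of the labelled tissue, and array medians were 6.35 to 6.41 in the labelled KO group and 6.42 to 6.46 in the labelled WT group.

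Of the 10 genes, 7 were higher and 1 lower in the labelled KO group at an adjusted p under 0.05 by limma, and Grb10 and Peg3 did not pass. Over all 21789 probe sets tested, 31.9% passed in either direction, 19.5% higher and 12.4% lower. Higher calls were thus 61.1% of the calls, and 77.8% when each array was centred on its median, with the same 7 and 1 of the 10 genes. The median difference of the 10 genes was 0.28, beside −0.02 over all probe sets. The groups did not overlap for 4 of the 10 genes (Cdkn1c, Plagl1, Peg10 and Ndn), beside 15.4% of all probe sets. Both shares lie above their backgrounds, but the genes were proposed with earlier results of these arrays known, so the counts are a description of them and not independent evidence.

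**Figure D1:**
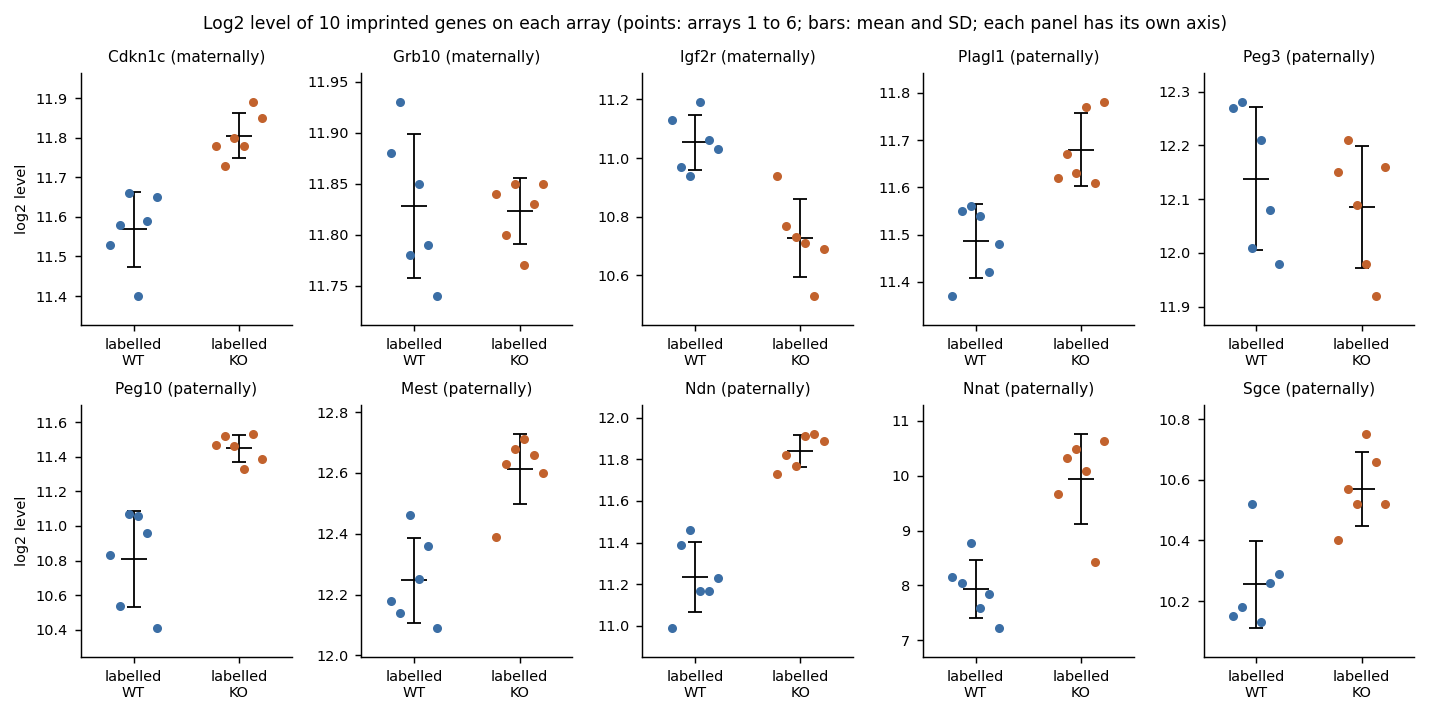
Log2 level (vertical axis, a separate scale in each panel) of the 10 imprinted genes on the 6 labelled WT arrays (blue) and the 6 labelled KO arrays (orange), with the mean and SD as a bar. Nnat spans the widest range, 7.22 to 10.64, while all 12 Grb10 values lie between 11.74 and 11.93.

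The start regions of some of these genes are shown first, since imprints lie in CpG-rich sequence, often at promoters. RefSeq windows on the GRCm38.p6 build, from 250 bases before to 50 bases after an annotated start, were found for 7 of the 10 genes, in 10 windows. The hexamer TGCCGC, which in its methylated form is the sequence bound by ZFP57 at imprints, was searched on both strands and counted also where it reads GCGGCA. It was held by 11.6% of 32851 windows of the same length. A window of Grb10, Plagl1, Mest and Nnat held it, and the windows of Igf2r, Peg3 and Ndn did not. The share over all windows is not a like background for this count of genes. Mest and Grb10 had several windows each, and the hexamer contains a CpG. The window of Nnat, which had the largest difference, is shown with those of Plagl1 and Mest, which were also higher, and with the gene that was lower, Igf2r. They lie at chr2:157559828-157560127 on the plus strand (Nnat), chr10:13090582-13090881 on the plus strand (Plagl1), chr6:30737800-30738099 on the plus strand (Mest) and chr17:12769657-12769956 on the minus strand (Igf2r). Capitals mark the hexamer, and a window without capitals does not hold it.
Nnat: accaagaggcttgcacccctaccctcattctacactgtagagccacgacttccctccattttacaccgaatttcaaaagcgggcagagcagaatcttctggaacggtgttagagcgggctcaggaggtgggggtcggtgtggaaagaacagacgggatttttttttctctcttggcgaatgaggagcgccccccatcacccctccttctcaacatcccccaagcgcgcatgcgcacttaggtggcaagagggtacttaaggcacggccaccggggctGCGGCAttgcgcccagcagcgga
Plagl1: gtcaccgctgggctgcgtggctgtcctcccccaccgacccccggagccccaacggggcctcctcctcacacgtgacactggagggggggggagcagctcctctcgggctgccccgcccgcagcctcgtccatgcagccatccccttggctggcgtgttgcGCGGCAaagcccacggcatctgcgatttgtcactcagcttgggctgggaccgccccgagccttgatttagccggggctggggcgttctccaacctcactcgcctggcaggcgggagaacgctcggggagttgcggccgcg
Mest: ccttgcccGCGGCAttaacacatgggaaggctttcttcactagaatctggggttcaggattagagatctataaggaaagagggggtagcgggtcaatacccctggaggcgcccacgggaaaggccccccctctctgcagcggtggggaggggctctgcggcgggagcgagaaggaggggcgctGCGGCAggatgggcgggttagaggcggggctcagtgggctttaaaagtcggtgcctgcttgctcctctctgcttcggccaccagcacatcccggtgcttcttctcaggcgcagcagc
Igf2r: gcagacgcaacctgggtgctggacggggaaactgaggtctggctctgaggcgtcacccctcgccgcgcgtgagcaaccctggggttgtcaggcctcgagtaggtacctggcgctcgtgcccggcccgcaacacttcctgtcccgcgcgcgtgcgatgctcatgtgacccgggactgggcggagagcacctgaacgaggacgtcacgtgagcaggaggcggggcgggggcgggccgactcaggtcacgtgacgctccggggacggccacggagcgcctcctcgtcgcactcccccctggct

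CpG dinucleotides numbered 17 in the Nnat window, 26 in that of Plagl1, 17 in that of Mest and 34 in that of Igf2r, beside a median of 7 over all windows. A second Mest start further upstream had 8 CpGs and no hexamer, and a second Grb10 window had 9 CpGs and no hexamer. Presence of the hexamer did not divide the genes that passed from those that did not, since Grb10 (45 CpGs) held it and Ndn (11 CpGs) lacked it. A match in these letters is a description of the sequence and says nothing of binding in muscle.

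Nnat, which encodes neuronatin, a small membrane protein of the endoplasmic reticulum known from the developing brain and from fat cells, had the largest difference of the 10 genes. Its levels ran from 8.42 through a median of 10.21 to 10.64 on the labelled KO arrays, and from 7.22 through 7.95 to 8.77 on the labelled WT arrays. Of the 6 labelled KO arrays 5 stood above every labelled WT array, and KO5, at 8.42, stood inside the labelled WT range. The mean was 4.0-fold higher in the labelled KO group, a log2 difference of 2.0 ± 0.34 (SE, 95% interval 1.27 to 2.73, limma adjusted p 0.000599), which was the 10th largest of all 21789 probe sets by size. Without KO5 the difference was 2.30, with an adjusted p of 4.03e-05.

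Fat cell genes moved with Nnat. Of 11 adipocyte genes measured, 6 were higher in the labelled KO group and none was lower, with a median difference of 0.33. Among them were Ucp1 (2.75 ± 0.60, SE), the uncoupling protein of brown fat, Lep (2.12 ± 0.36), which encodes leptin, Plin1 (1.72 ± 0.33), a lipid droplet protein, and Retn (1.24 ± 0.39), which encodes resistin. The study reported Ucp1 and Lep transcripts as lower in mice lacking cofilin-2, the opposite direction to that by title here. Beside the adipocyte counts, 19.5% of all probe sets were higher and 12.4% lower. The mean level of the 11 genes was 9.65 to 9.93 on 5 labelled KO arrays and 8.42 on KO5, and 8.45 to 9.18 on the labelled WT arrays, so KO5 was low in both measures. Over the 12 arrays, after subtracting group means, Nnat and the adipocyte mean had a Pearson r of 0.75, a description of arrays that share 1 tissue and 1 normalization. With the adipocyte mean as a covariate the Nnat difference was 0.96 ± 0.35 with an adjusted p of 0.0867. In bulk tissue, fewer cells of a type and less RNA per cell cannot be told apart, and the part of fat tissue in the Nnat difference was not tested beyond this fit.

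**Figure D2:**
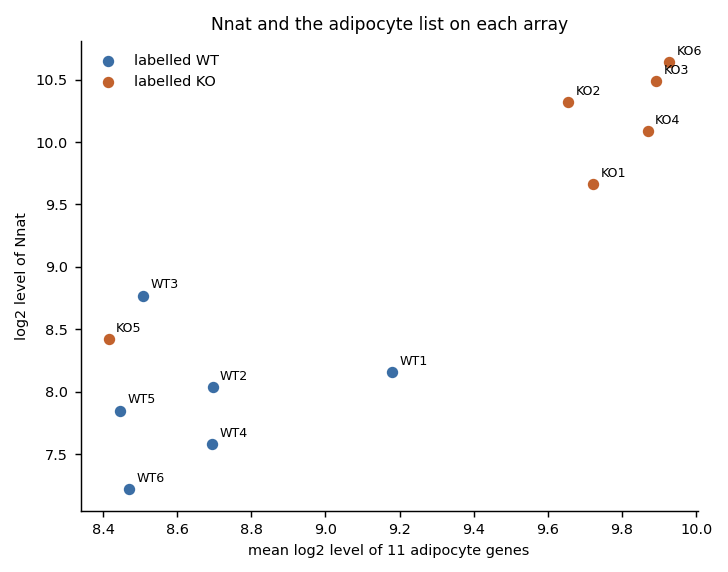
Log2 level of Nnat (vertical axis) against the mean log2 level of 11 adipocyte genes (horizontal axis) on each of the 12 arrays, named by title. The other 5 labelled KO arrays lie at the upper right, and KO5 (8.42 on both axes) lies among the labelled WT arrays.

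Peg10 and Sgce are paternally expressed neighbours on chromosome 6 that start next to each other in opposite directions. Peg10, a gene derived from a retrotransposon and needed for the placenta, ranged from 11.33 through a median of 11.47 to 11.53 on the labelled KO arrays and from 10.41 through 10.90 to 11.07 on the labelled WT arrays. The groups did not overlap, and the labelled WT arrays were the more spread (SD 0.28 against 0.08, n = 6 each). Peg10 was 1.56-fold higher in the labelled KO group (0.64 ± 0.10, SE, 95% interval 0.41 to 0.86, adjusted p 0.000457).

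Sgce encodes epsilon-sarcoglycan, a membrane protein related to the sarcoglycans of the muscle fibre. Its levels were 10.40 to 10.75 (median 10.55) on the labelled KO arrays and 10.13 to 10.52 (median 10.22) on the labelled WT arrays. The groups overlapped, with 3 of 6 labelled KO arrays above the highest labelled WT array, WT3. Sgce was 1.24-fold higher (0.32 ± 0.07, SE, 95% interval 0.16 to 0.47, adjusted p 0.00449). Although Peg10 and Sgce were both higher, their within-group r was only 0.10 over 12 arrays. So few arrays cannot show that they vary independently.

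Mest, also on chromosome 6, encodes a protein of the hydrolase family that is used as a marker of expanding fat and of mesodermal tissue. It ranged from 12.39 through a median of 12.65 to 12.71 on the labelled KO arrays and from 12.09 through 12.22 to 12.46 on the labelled WT arrays. KO1 was the lowest of its group and lay below WT3, and the other labelled KO arrays lay above all labelled WT arrays. Mest was 1.29-fold higher in the labelled KO group (0.37 ± 0.07, SE, 95% interval 0.22 to 0.51, adjusted p 0.00135).

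Ndn, on chromosome 7, encodes necdin, a protein of the MAGE family that binds E2F1 and is known from neurons and from muscle precursor cells. Labelled KO arrays ran from 11.73 through 11.86 to 11.92, and labelled WT arrays from 10.99 through 11.20 to 11.46. All 6 labelled KO arrays were above all labelled WT arrays. The difference of 0.61 ± 0.07 (SE, 95% interval 0.45 to 0.76) was 1.52-fold and had the smallest adjusted p of the 10 genes, 4.15e-05. For both Ndn and Peg10 few probe sets had larger differences in size, 4.01% and 3.45% of all tested.

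Plagl1, on chromosome 10, encodes a zinc finger factor, also called ZAC1, that can stop the cell cycle and regulates other imprinted genes. It ranged from 11.61 through 11.65 to 11.78 on the labelled KO arrays and from 11.37 through 11.51 to 11.56 on the labelled WT arrays, with no overlap. The difference was small, 1.14-fold (0.19 ± 0.05, SE, 95% interval 0.09 to 0.30, adjusted p 0.0073).

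Peg3 was the paternally expressed gene that did not pass. It encodes a zinc finger protein of growth and apoptosis that is known in muscle stem cells. Its levels were 11.92 to 12.21 on the labelled KO arrays and 11.98 to 12.28 on the labelled WT arrays, and the groups overlapped almost fully. The difference was −0.05 ± 0.07 (SE, adjusted p 0.574), and its 95% interval of −0.20 to 0.09 includes small changes in either direction.

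The 3 maternally expressed genes did 3 different things. Cdkn1c, on chromosome 7, encodes p57, an inhibitor of cyclin-dependent kinases that holds differentiating myoblasts out of the cell cycle. Its labelled KO levels were 11.73 to 11.89 (median 11.79) and its labelled WT levels 11.40 to 11.66 (median 11.59), without overlap. Cdkn1c was 1.18-fold higher in the labelled KO group (0.24 ± 0.05, SE, 95% interval 0.13 to 0.34, adjusted p 0.00217).

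Igf2r, on chromosome 17, encodes the receptor that carries IGF2 and mannose 6-phosphate tagged enzymes to the lysosome, which removes IGF2 from the tissue. It was the 1 gene of the 10 that was lower. Its levels ran from 10.53 through 10.72 to 10.94 on the labelled KO arrays and from 10.94 through 11.05 to 11.19 on the labelled WT arrays. The groups met only at 10.94, where KO1 equalled WT3. Igf2r was 1.25-fold lower in the labelled KO group (−0.33 ± 0.06, SE, 95% interval −0.46 to −0.19, adjusted p 0.00164).

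Grb10, on chromosome 11, encodes an adaptor that binds the insulin and IGF1 receptors and restrains their signalling, and is expressed from the paternal allele in neurons. It lay at 11.77 to 11.85 on the labelled KO arrays and 11.74 to 11.93 on the labelled WT arrays. The difference of −0.0050 ± 0.04 (SE, adjusted p 0.936) had a 95% interval of −0.09 to 0.08, the narrowest of the 10 genes. Its sign turned when each array was centred on its median (0.05), which turned the sign of no gene that passed.

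**Figure D3:**
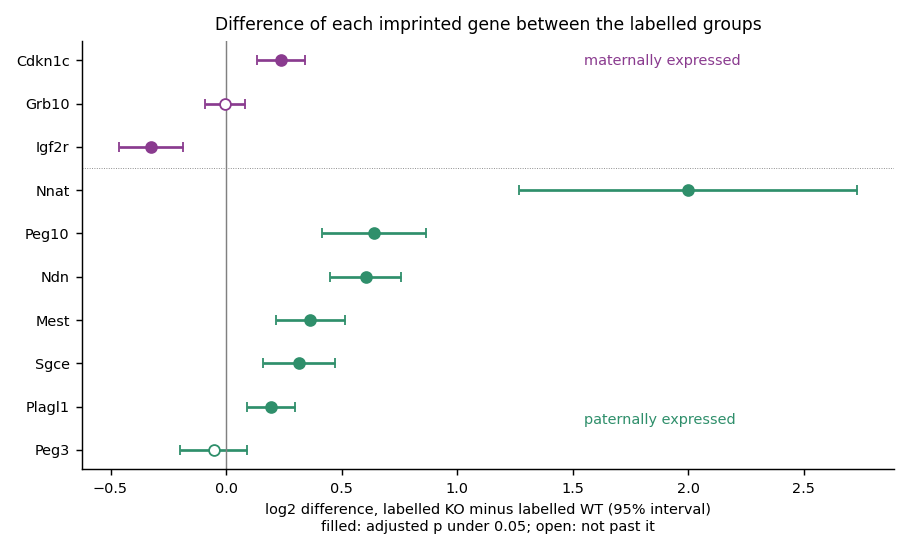
Log2 difference, labelled KO minus labelled WT, of each gene (points) with its 95% interval (bars), maternally expressed genes above the dotted line and paternally expressed genes below it. Filled points passed an adjusted p under 0.05, which 6 of 7 paternally expressed genes did on the higher side, against 1 higher (Cdkn1c) and 1 lower (Igf2r) of the 3 maternally expressed genes, beside 19.5% higher and 12.4% lower over all probe sets.

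By parental class, 6 of the 7 paternally expressed genes were higher in the labelled KO group and none was lower, with a median difference of 0.37. Of the 3 maternally expressed genes 1 was higher, 1 was lower and 1 did not pass, with a median of −0.0050. Over all probe sets 19.5% were higher and 12.4% lower, and classes of this size, chosen with results known, are only described by their counts. To put the classes on 1 scale, each gene was centred on its mean over the 12 arrays and the genes of a class were averaged on each array. The mean of the maternally expressed genes differed by −0.03 between the groups and that of the paternally expressed genes by 0.58. The maternal mean minus the paternal mean was −0.41 to −0.13 on the labelled KO arrays and 0.03 to 0.50 on the labelled WT arrays, a difference of −0.61. Without Nnat it was −0.38, with −0.26 to −0.04 on the labelled KO arrays and 0.01 to 0.29 on the labelled WT arrays. The 2 groups of arrays did not overlap in either form, and the arrays of the 2 groups nearest to each other were KO1 and WT3 in both. No p-value is attached to these scores.

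Genes of several other cell types also differed between the groups. Of 8 fibroblast and fibro-adipogenic progenitor genes measured, 7 were higher in the labelled KO group and 1 was lower, with a median difference of 0.37. They included Dpt (0.91 ± 0.10, SE) and Lum (0.60 ± 0.10), both of the extracellular matrix, Cd34 (0.48 ± 0.07) and Pi16 (0.46 ± 0.12), while Pdgfra, the receptor that defines these progenitors, was lower (−0.29 ± 0.09). The mean level of the list was 10.62 to 10.86 on the labelled KO arrays and 10.22 to 10.56 on the labelled WT arrays, without overlap. Of 9 genes of dividing cells, 8 were higher and none was lower, with a median of 0.73, among them Plk1 (0.97 ± 0.20), Bub1 (0.91 ± 0.18), Ccna2 (0.89 ± 0.18) and Top2a (0.87 ± 0.16). Their mean was 9.01 to 9.26 on the labelled KO arrays and 7.80 to 8.90 on the labelled WT arrays. Endothelial genes (6 of 8 higher, none lower, with a list mean of 10.26 to 10.33 against 9.74 to 10.13) and macrophage genes (5 of 8 higher, none lower, 8.46 to 8.62 against 7.88 to 8.48) were also higher where they passed. Satellite cell genes (2 of 9 higher, none lower, 8.40 to 8.47 against 8.22 to 8.33) and nerve genes (2 of 4 higher, none lower) also held no gene that was lower. Beside all these counts, 19.5% of all probe sets were higher and 12.4% lower. The satellite cell count is near those shares, and lists this small are only described. The muscle fibre list held 2 genes that were higher, Myh4 (1.70 ± 0.27) and Actn3 (0.54 ± 0.07) of fast fibres, and 5 that were lower. Among the lower were Ttn (−0.40 ± 0.10) and the neonatal myosin gene Myh8 (−0.16 ± 0.04). The other lower genes, Mylpf (−0.15 ± 0.04), Tnnt3 (−0.12 ± 0.04) and Tnni2 (−0.13 ± 0.04), are also of fast fibres, so fast fibre genes went in both directions.

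Several of the imprinted genes varied with these lists inside the groups. After subtracting group means, r over the 12 arrays with the fibroblast list was 0.76 for Mest, 0.64 for Sgce, 0.61 for both Ndn and Nnat, 0.58 for Plagl1, 0.31 for Peg10, 0.23 for Cdkn1c and −0.47 for Igf2r. With the dividing cell list it was 0.81 for Peg10 and 0.66 for Mest, and −0.27 for Cdkn1c. These are descriptions over arrays that share tissue and processing. With the fibroblast list mean as a covariate, chosen after seeing the data, none of the 10 genes passed by limma after adjustment, 1 (Ndn, 0.32 ± 0.14) had an unadjusted p under 0.05, and the difference between the maternal and paternal means was −0.16. In that fit 193 of all probe sets passed, and standard errors were wider (0.62 against 0.34 for Nnat). The covariate itself separates the groups without overlap. Differences of the genes that had passed were also smaller, at 0.47 for Nnat, 0.41 for Peg10, 0.17 for Cdkn1c and −0.13 for Igf2r. They were 0.03 for Plagl1 and 0.01 for both Mest and Sgce. The part of fibroblasts in these differences was not tested beyond this fit. With the dividing cell list mean as a covariate, Cdkn1c (0.29, adjusted p 0.0384) and Ndn (0.50, adjusted p 0.0161) passed and the other 8 genes did not. Of those, Grb10 and Peg3 had not passed before. Differences were smaller for Peg10 (0.25), Mest (0.17), Plagl1 (0.13) and Sgce (0.23). Nnat (1.73 ± 0.56) and Igf2r (−0.31 ± 0.11) kept more of their size, with wider standard errors. The dividing cell list mean also separates the groups without overlap. With the adipocyte mean as a covariate Plagl1 (0.16, adjusted p 0.166) and Nnat did not pass, and the other 6 genes that had passed did so again. In that limma fit 9 of the 10 genes had an unadjusted p under 0.05, among them Nnat, Plagl1 and Peg3 (−0.21 ± 0.09).

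The genes differed in how they moved together from mouse to mouse. Of the 45 pairs, the highest within-group correlations over the 12 arrays were those of Grb10 with Peg3 (r = 0.74), Mest with Sgce (0.72), Plagl1 with Ndn (0.70) and Ndn with Sgce (0.69). The lowest were those of Peg3 with Sgce (−0.74), Cdkn1c with Igf2r (−0.73) and Igf2r with Ndn (−0.72). Grb10 and Peg3, neither of which passed between the groups, thus varied together and opposite to Sgce (−0.63 for Grb10).

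**Figure D4:**
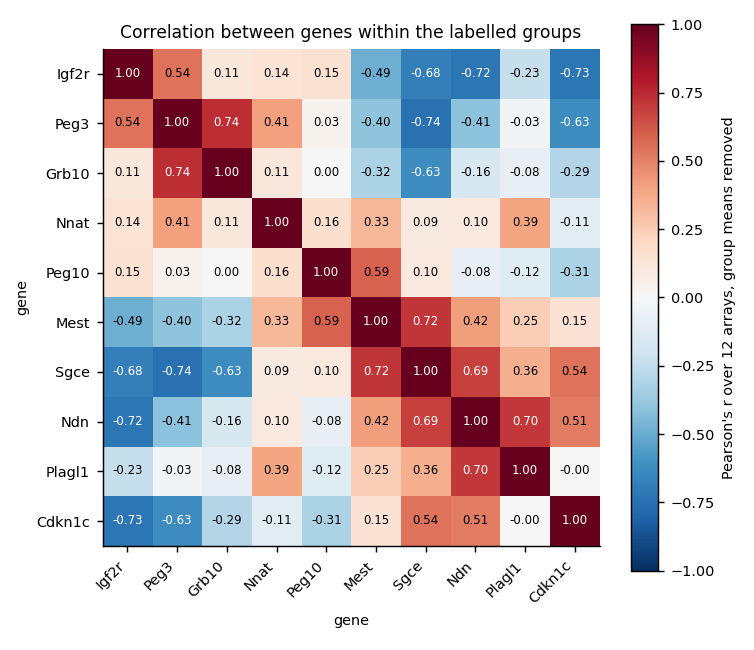
Pearson's r between each pair of the 10 genes over 12 arrays after subtracting the mean of each labelled group (red positive, blue negative, both axes list the genes). Igf2r and Peg3 are negatively correlated with Sgce (−0.68 and −0.74), and Mest, Sgce and Ndn are positively correlated with each other (0.42 to 0.72).

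For each gene that passed, the genes with the most similar pattern were taken by the same within-group r over all genes. With each is given its difference, labelled KO minus labelled WT. Igf2r was most like Usp34 (r = 0.98, difference −0.27, adjusted p 0.0254) and Herc1 (r = 0.97, difference −0.31, adjusted p 0.0684). Mest was most like Meox2 (r = 0.96, difference 0.39), a homeobox factor of mesoderm, and Ptn (r = 0.95, difference 0.88), which encodes the secreted growth factor pleiotrophin. Sgce was most like Scoc (r = 0.96, difference 0.52) and Mkx (r = 0.95, difference 0.38), the homeobox factor of tendon. Peg10 was most like Gask1b (r = 0.94, difference 0.57) and Arhgap18 (r = 0.94, difference 0.77), and Nnat was most like Mmd (r = 0.90, difference 0.76) and Tenm4 (r = 0.88, difference 0.48). Both partners of Mest, Sgce, Peg10 and Nnat were themselves higher in the labelled KO group. Ndn was most like Serpinb9e (r = 0.95, difference −0.06, adjusted p 0.473) and Snx3 (r = 0.94, difference 0.20), Cdkn1c like Dctn3 (r = 0.92, difference 0.01, adjusted p 0.936) and Hikeshi (r = 0.91, difference 0.39), and Plagl1 like Abhd17b (r = 0.88, difference 0.10, adjusted p 0.148) and Shroom3 (r = 0.88, difference −0.08, adjusted p 0.472). The gene most like Peg3 was its maternally expressed neighbour Zim1 (0.96), which is named after its values were seen. Zim1 was lower in the labelled KO group (−0.18 ± 0.06, SE, adjusted p 0.0236) where Peg3 did not pass. These values of r are the highest among 19938 genes, a choice that favours high values.

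Imprinted genes that are not among the 10 were called in both directions, in shares not far from those of all probe sets. Of 53 listed outside the Dlk1-Dio3 cluster 44 were measured, of which 12 were higher, 6 were lower and 26 did not pass, with a median difference of −0.02, the same as that of all probe sets, of which 19.5% were higher and 12.4% lower. With each array centred on its median 15 of the 44 were higher and 4 lower. Among the 29 maternally expressed ones 10 were higher and 4 lower (median 0.07), and among the 15 paternally expressed ones 2 were higher and 2 lower (median −0.07). Calcr, which encodes the calcitonin receptor carried by quiescent satellite cells and is also on the satellite cell list, had the largest difference together with Ddc. It lay at 7.13 to 7.47 on the labelled KO arrays and 6.45 to 6.79 on the labelled WT arrays (0.64 ± 0.07, SE, adjusted p 2.29e-05). Ddc, which encodes the decarboxylase that makes dopamine and serotonin, lay at 8.35 to 8.80 and 7.56 to 8.26 (0.64 ± 0.10, adjusted p 0.000425). Atp10a (0.48 ± 0.05), a lipid flippase, Asb4 (0.44 ± 0.06), Pon3 (0.43 ± 0.07), a lactonase, and Kcnq1 (0.36 ± 0.06), a potassium channel, were also higher without overlap. Pon2, next to Pon3, was lower without overlap (−0.42 ± 0.05), and the decoy receptor Tnfrsf23 was lower with overlap (−0.49 ± 0.14). Several of these genes are imprinted only in placenta, brain or heart, so their listed parental class need not hold in muscle.

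**Figure D5:**
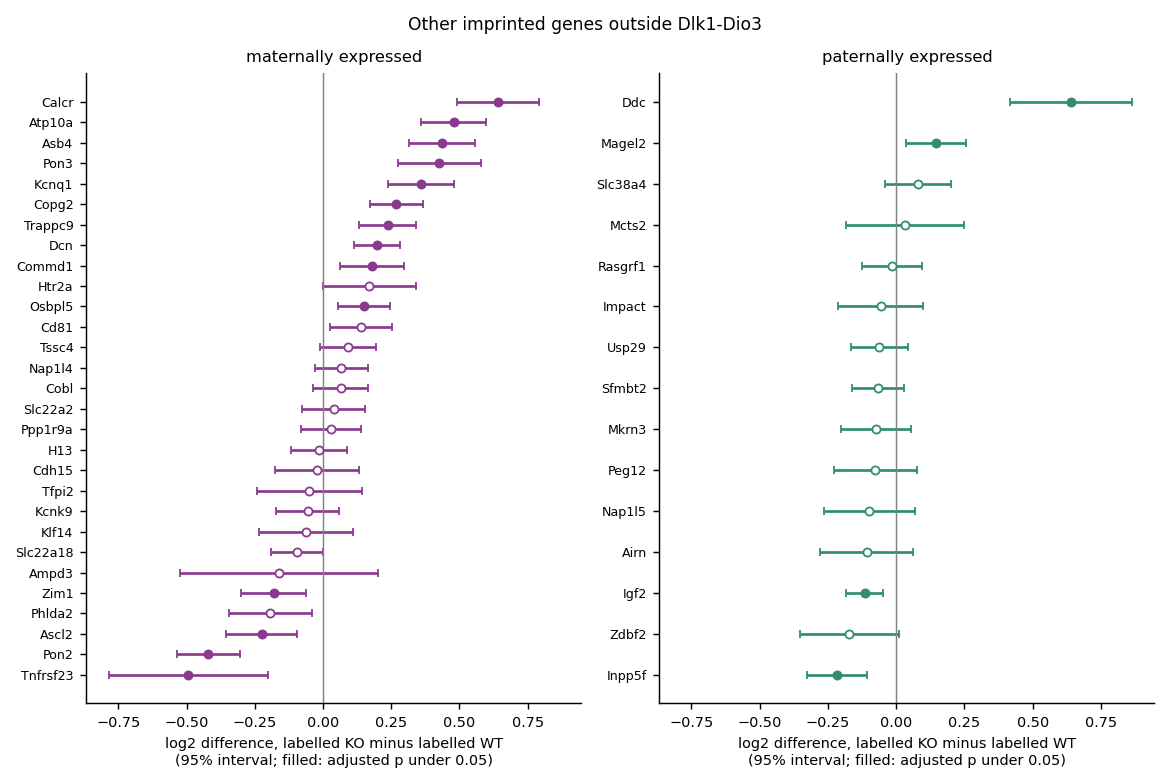
Log2 difference, labelled KO minus labelled WT, of 44 further imprinted genes (points) with unadjusted 95% intervals (bars), 29 maternally expressed on the left and 15 paternally expressed on the right. Filled points passed an adjusted p under 0.05, and both panels hold genes on either side of 0, from Tnfrsf23 (−0.49) to Calcr and Ddc (0.64).

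Neighbours within 3 Mb did not share 1 direction with the gene beside them. Around Peg10 and Sgce, the maternally expressed Calcr, Pon3 and Asb4 were higher, Pon2 was lower, and Tfpi2 (−0.05) and Ppp1r9a (0.03) did not pass. Around Cdkn1c, Kcnq1 and Osbpl5 (0.15 ± 0.04) were higher, while Ascl2 (−0.23 ± 0.06), Tnfrsf23 and the paternally expressed Igf2 were lower, and 5 other genes did not pass. Ascl2 was dim, with means of 5.30 in the labelled KO group and 5.53 in the labelled WT group, under the array medians. Copg2, which overlaps the Mest locus on the other strand, was higher like it (0.27 ± 0.05, adjusted p 0.000546), and Klf14, also near Mest, was −0.06 (adjusted p 0.586). Magel2, a MAGE gene beside Ndn, was higher by less (0.15 ± 0.05, adjusted p 0.0445), and Mkrn3 (−0.07) and Peg12 (−0.08) did not pass. Next to Grb10, Ddc was higher although Grb10 did not pass. Airn, the paternal RNA that runs antisense through Igf2r and silences it on that allele, was −0.11 ± 0.08 (adjusted p 0.318) where Igf2r was lower. Osbpl5, Ascl2, Copg2, Magel2 and the genes that did not pass are named for their position, after their values were seen.

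Partners of the 10 genes were followed through lists of interacting or pathway genes. Of 40 measured, 11 were higher, 8 were lower and 21 did not pass, with a median of 0.05. Of all probe sets 19.5% were higher and 12.4% lower, and 15.4% did not overlap between the groups. The same shares stand beside the counts of the smaller partner lists that follow, which are only described. Around Igf2r, 6 were measured. Igf2, its growth factor ligand, was slightly lower without overlap (13.39 to 13.44 against 13.48 to 13.56, −0.12 ± 0.03, SE, adjusted p 0.0127), and Igf1 was higher without overlap (median 11.05 against 10.70, 0.31 ± 0.05, adjusted p 0.000272). Igf1r, the receptor through which both signal, was lower without overlap (8.93 to 9.35 against 9.68 to 10.15, −0.72 ± 0.09, adjusted p 7.43e-05). Gnptab (0.28 ± 0.08) and Nagpa (0.21 ± 0.04), which make the mannose 6-phosphate tag, were higher, and Gnptg (−0.04) did not pass.

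Among 8 genes of insulin receptor signalling, where Grb10 acts, 3 were lower and 1 was higher although Grb10 itself did not pass. Insr, the insulin receptor, was at 10.05 to 10.56 on the labelled KO arrays and 10.80 to 11.14 on the labelled WT arrays (−0.68 ± 0.09, SE, adjusted p 7.14e-05). Irs2, a substrate of the receptor, was lower without overlap (−0.63 ± 0.12, adjusted p 0.00137), and Mtor was lower with overlap (−0.34 ± 0.09, adjusted p 0.01). Grb14, an adaptor of the same family as Grb10, was higher without overlap (8.01 to 8.47 against 6.99 to 7.86, 0.69 ± 0.14, adjusted p 0.00204). Irs1 (−0.08), Grb7 (−0.05), Pik3r1 (−0.38, adjusted p 0.0557) and Rptor (−0.01) did not pass.

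Of 10 cyclins, cyclin-dependent kinases and inhibitors beside Cdkn1c, 6 were higher without overlap and none was lower, with a median of 0.33. Ccne1 (1.01 ± 0.17, SE), Ccnd1 (0.81 ± 0.10) and Ccne2 (0.64 ± 0.08) encode cyclins that drive the start of DNA synthesis, and Cdk2 (0.37) and Cdk4 (0.30) their kinases. Cdkn2c (0.96 ± 0.12) encodes p18, like p57 an inhibitor of cyclin-dependent kinases. Both inhibitors were thus higher on the same arrays as the cyclins, while Cdkn1b (−0.06), Cdk6 (0.12), Ccnd2 (0.09) and Ccnd3 (0.10) did not pass. Of 5 genes measured around Ndn and Peg3, 1 was higher, 1 was lower and 3 did not pass. E2f1, the factor bound by necdin, was higher without overlap (0.43 ± 0.06, adjusted p 0.000228), and Siah1a, which acts with PEG3 in apoptosis, was lower without overlap (−0.37 ± 0.06, adjusted p 0.000331). E2f2 (0.31, adjusted p 0.165), E2f4 (0.10) and Siah2 (0.11) did not pass.

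Of the 6 measured genes of the dystrophin complex beside Sgce, Dmd, which encodes dystrophin, was lower without overlap (9.68 to 10.44 against 10.61 to 11.20, −0.98 ± 0.12, SE, adjusted p 6.8e-05). Sgca (0.08), Sgcb (0.05), Sgcd (−0.14), Sspn (0.05) and Dag1 (−0.01) did not pass. Of the 5 calcium pump genes beside Nnat, Atp2a2, the pump of slow fibres and heart, was lower without overlap (11.75 to 12.06 against 12.26 to 12.52, −0.54 ± 0.06, adjusted p 1.82e-05). Atp2a1 (0.04), Atp2a3 (−0.06), and the pump inhibitors Sln (−0.15) and Pln (−0.01) did not pass.

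Genes that keep or erase imprints were examined as a last group. Of 14, 6 were higher, 1 was lower and 7 did not pass, with a median of 0.12, beside 19.5% higher and 12.4% lower over all probe sets. Tet1, which oxidizes methylated cytosine, was higher without overlap (9.78 to 9.96 against 8.55 to 9.39, 0.77 ± 0.12, SE, adjusted p 0.000252), and its relative Tet2 was lower without overlap (−0.43 ± 0.08, adjusted p 0.00128). Uhrf1 (0.69 ± 0.14, adjusted p 0.00204) and Dnmt1 (0.43 ± 0.11, adjusted p 0.0104), which copy methylation in dividing cells, were higher with overlap, beside the higher dividing cell genes given above. Zfp57, which binds the methylated hexamer, was higher with overlap (7.48 to 8.28 against 6.94 to 7.86, 0.47 ± 0.15, adjusted p 0.0232). Methylation itself was not measured in this series.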

How the data were processed

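The deposited table held log2 levels per probe set, made by the authors from Affymetrix Mouse Gene 1.0 ST arrays with the Affymetrix operating software and Power Tools. The sources used here give no software version, summary method or build. The table names no scale, and log2 was inferred from its range. Groups came from the sample titles, 6 WT and 6 KO. The study's methods describe 1 mouse per array, and the labels name no batch.

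Of 35556 rows, 21789 were paired with 1 gene symbol in the platform annotation and tested, 1621 had several symbols and 12146 were not listed. Symbols were updated by gene identifier from RefSeq (GRCm38.p6), which matched 21698 probe sets. For each gene the probe set with the highest mean stood for it. Differences, labelled KO minus labelled WT, were fitted with lmFit and eBayes of limma 3.58.1 in R 4.3.3, two-sided, without covariates, normalization or filter, with Benjamini-Hochberg adjustment over all 21789. The script was tested on simulated data. A fold is the antilog of the log2 difference. Precision is limited by the number of arrays.

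The members, lists and tests were chosen with earlier results of these data known. Named were the 10 members, the 8 largest passing differences among other imprinted genes, up to 4 passing genes of each list by size, partners beside their member, Cfl2, and for each passing member the 2 genes with the highest within-group r. Pdgfra and Tet2, the single lower genes of their lists, were added after their values were seen. So were Mylpf, Tnnt3 and Tnni2 of the muscle fibre list, and the neighbours. Alternatives were quantile normalization, centring of each array, a replicate block, dropping the dimmest 40% of probe sets, testing all rows, other variance settings, array weights, the methods' t-test, the mean of a gene's probe sets, each array left out, and list means or Xist as covariates. Genes lacking their own probe set were not analysed here.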

Additional observations from a re-analysis of the deposited data

Results flagged for a closer look

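Mest on the array KO1 was set apart from its group by a test for single outlying values. It stood at 12.39 on the log2 scale, with the nearest of the other 5 labelled KO arrays at 12.60 and the highest at 12.71. The gap was 0.656 of the group's range, over the critical value for 6 arrays. It was the 1 such value in 20 groups (10 genes in 2 groups), and chance sets apart about 1 in 20. Without KO1 the difference of Mest was 0.41, with a limma adjusted p of 0.000462.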

How the results depend on the processing

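Each of the 10 genes was refitted under 25 alternatives, and no called difference changed sign. Quantile normalization, median centring, the filter on dim probe sets, all rows, trend and robust variance, array weights, the methods' t-test and Xist as a covariate kept all 8 calls. Averaging a gene's probe sets could not change a member, since each has 1. With each array left out in turn, 7 genes stayed higher and 1 lower, the counts over all probe sets were 5924 to 7155, those of other imprinted genes 11 to 13 higher and 5 to 7 lower, and the maternal minus paternal difference was −0.67 to −0.57. The share of calls that were higher was 61.1%, and 77.8% with median centring, where 15 other imprinted genes were higher and 4 lower.

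The study's methods describe pairs of littermates, and the labels do not say whether the numbers mark them. Same-numbered arrays correlated at −0.22 to 0.17 in their deviations, over 0.1 for 2 of 6 pairs, and 1 of 6 labelled WT arrays correlated best with its own number, so the numbers were not taken as pairs. With the replicate number as a block, 7 members were higher and 1 lower, 6074 probe sets passed, and 10 other imprinted genes were higher and 5 lower.

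List means as covariates changed the counts, and the cause was not tested. With the adipocyte list 3434 probe sets passed by limma, and 5 members were higher and 1 lower (9 at an unadjusted p under 0.05). Of the other imprinted genes, 7 were higher and 3 lower. With the fibroblast list, added after seeing the data, 193 probe sets passed by limma, 0 members were higher and 0 lower (1 at an unadjusted p under 0.05), 1 other imprinted gene was higher and 0 lower, and the maternal minus paternal difference was −0.16. With the dividing cell list, also added, 1898 probe sets passed, 2 members were higher and 0 lower (5 at an unadjusted p under 0.05), 7 other imprinted genes were higher and 2 lower, and the difference was −0.44. The methods' t-test passed 8864 probe sets at the threshold given there and 6342 after Benjamini-Hochberg, 8 members in both. The fold was taken here as the antilog of the log2 difference. As labelled WT over labelled KO it was 0.0125 for Cfl2, 0.149 for Ucp1 and 0.230 for Lep. The study's ratios for these genes were much less extreme. Its fold limits thus appear to have been applied to another quantity, and the 8864 is not comparable with the study's own count.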
